A study of Mus musculus with 12 samples.

Results

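The genes described here encode the subunits of complexes I to V of the mitochondrial inner membrane, which carry electrons from NADH and succinate to oxygen and make ATP, together with the Ndufaf assembly factors of complex I. They were taken by symbol: names beginning with Nduf, Uqcr, Atp5, mt-Nd, mt-Co, mt-Cytb or mt-Atp, the Sdha to Sdhd genes, and the Cox4 to Cox8 families. The rule found 115 of the 51341 gene identifiers in the deposited table, with 114 distinct symbols because Atp5o has more than one identifier, and 5 symbols ending in ps and a number were left out. Of the 115, 94 were nuclear protein-coding genes, 13 were protein-coding genes of the mitochondrial genome and 8 were pseudogene or noncoding models.

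Trigeminal ganglia, which hold the sensory neurons of the face and meninges, came from 12 CD1 mice, an outbred stock, 6 titled as responders to PACAP, a peptide studied in headache, and 6 titled as nonresponders. Each group had 3 males and 3 females. The labels named no allele, and the sources used here state neither how the response was scored nor when PACAP was given. The leading number of the labels' description codes differed between every responder and every nonresponder, and its meaning is not stated, so anything it marks cannot be told apart from the response. Within groups it was shared by responders 1 and 2, by responders 3 and 4, by nonresponders 1 and 6, and by nonresponders 2, 4 and 5. Mice that shared it were of the same sex. All 16 sensory neuron markers examined were above 0, among them Tubb3, the neuronal tubulin, at 768 ± 189 FPKM in responders and 677 ± 118 FPKM in nonresponders (SD, n = 6 each). FPKM are fragments per kilobase of transcript, scaled to the size of the library. They summed to between 286388 and 358590 per mouse, and between 12648 and 13994 genes reached 1 FPKM. Genes of the anterior pituitary, the gland beside the ganglia, took 21.7% of the total in responder 1 and at most 2.24% in any other mouse.

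The respiratory chain is built from 2 genomes. The mitochondrial genome encodes core subunits of complexes I, III, IV and V, which are transcribed as long polycistronic RNAs and cut apart, while the nucleus encodes the other subunits, all of complex II included, each from its own promoter. Several complex IV subunits have paired isoforms, one expressed widely and the other in striated muscle, lung or testis. Large sensory neurons with long axons depend heavily on this system for ion pumping.

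The promoters of the nuclear members are shown first because the members lie on many chromosomes and are known for a shared set of regulators, the nuclear respiratory factors NRF1 and GABP, an Ets protein, and YY1. A RefSeq promoter of GRCm38.p6, running from 250 bases before to 50 bases after the start site, was found for 76 of 93 nuclear protein-coding symbols, 2 of them through a synonym. The letters CGCATGCG of the NRF1 core, read on both strands, stood in 14.5% of these promoters, against 2.07% of the 27025 genes of the same table. The Ets core CCGGAAG stood in 23.7% against 9.93%, and the YY1 core AAGATGGC in 14.5% against 3.19%. These motifs did not share letters in the promoters printed here. A gene counted when any of its windows held the letters, and the members had fewer windows than the other genes, 1.07 against 1.22 on average. Their mean GC content was 57.7% against 53.6%. The comparison set held genes whatever their expression, and the shares among expressed genes were not computed. The higher shares therefore cannot be read as particular to the respiratory chain. By class, the YY1 core was found in 6 of 27 complex I accessory genes and in 0 of 14 complex IV genes, and the Ets core in 5 of 15 complex V genes and 2 of 27 complex I accessory genes.

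Promoters are printed 5′ to 3′ on the gene's strand with matched letters in capitals. Atp5j (chr16:84834927-84835226, minus strand) is shown because this window, one of 2 for the gene, held each of the motifs, and Cox8a (chr19:7217567-7217866, minus strand) and Cox8b (chr7:140900397-140900696, minus strand) because these paralogs, described below, behaved differently across mice. Ndufs5 (chr4:123718137-123718436, minus strand) is shown because it alone among the members passed the test of the response. No motif was found in the Cox8b and Ndufs5 windows, which says only that these letters are not there.
Atp5j: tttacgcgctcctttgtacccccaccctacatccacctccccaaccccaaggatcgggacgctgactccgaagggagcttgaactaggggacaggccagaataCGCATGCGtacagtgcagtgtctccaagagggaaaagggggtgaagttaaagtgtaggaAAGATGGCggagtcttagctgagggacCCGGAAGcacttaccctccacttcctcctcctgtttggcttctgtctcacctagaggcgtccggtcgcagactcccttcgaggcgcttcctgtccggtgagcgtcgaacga
Cox8a: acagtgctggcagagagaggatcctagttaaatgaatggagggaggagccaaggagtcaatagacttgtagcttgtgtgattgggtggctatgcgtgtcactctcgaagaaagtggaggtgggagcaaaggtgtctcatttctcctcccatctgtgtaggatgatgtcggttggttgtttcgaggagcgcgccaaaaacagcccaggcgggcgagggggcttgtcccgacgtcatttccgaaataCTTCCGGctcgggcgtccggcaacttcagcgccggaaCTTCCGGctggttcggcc
Cox8b: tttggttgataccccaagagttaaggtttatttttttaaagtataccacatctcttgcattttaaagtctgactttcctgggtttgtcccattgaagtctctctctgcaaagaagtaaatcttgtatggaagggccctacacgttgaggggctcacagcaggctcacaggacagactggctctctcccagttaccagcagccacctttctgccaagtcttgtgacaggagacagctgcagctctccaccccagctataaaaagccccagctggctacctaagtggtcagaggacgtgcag
Ndufs5: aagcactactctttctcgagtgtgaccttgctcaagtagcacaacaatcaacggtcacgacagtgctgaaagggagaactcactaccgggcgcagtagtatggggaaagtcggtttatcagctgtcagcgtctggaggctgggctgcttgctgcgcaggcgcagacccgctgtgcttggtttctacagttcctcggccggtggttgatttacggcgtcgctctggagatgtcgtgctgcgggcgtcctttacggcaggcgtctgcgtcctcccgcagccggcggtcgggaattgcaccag
In Cox8a both capital stretches are the Ets core read on the opposite strand.

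Transcripts of the mitochondrial genome were the most abundant class of members by median on the FPKM scale, which is per length. Mean FPKM over the 12 mice ran from 418 for mt-Nd3 to 3740 for mt-Co1, the catalytic subunit of complex IV, with a median of 1030 over the 13 genes. The highest nuclear member was Atp5b, the catalytic beta subunit of ATP synthase, at 678 FPKM, above mt-Nd4l (614 FPKM) and mt-Nd3. Among nuclear classes the median of mean FPKM was 117 for complex V, 114 for complex IV, 94.3 for complex II, 92.2 for complex III, 71.9 for the accessory and 68.4 for the core subunits of complex I, and 14.1 for the complex I assembly factors. For complexes IV and V these medians include genes that did not pass the filter on low values. Over tested genes alone they were 127 FPKM for complex IV and 121 FPKM for complex V, in the opposite order. The subunits of 1 complex were listed at unequal levels. In complex I, Ndufb9 had a mean of 148 FPKM and Ndufc1 of 1.31 FPKM, and in complex III, Uqcrh, the hinge protein, stood at 168 FPKM and Uqcrc1, a core protein, at 8.53 FPKM. The coefficient of variation over the 12 mice had a median of 11.7% for 85 nuclear members with a mean of at least 5 FPKM, 19.2% for the 13 mitochondrially encoded genes and 16.7% for 7630 protein-coding genes of that level.

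**Figure D1:**
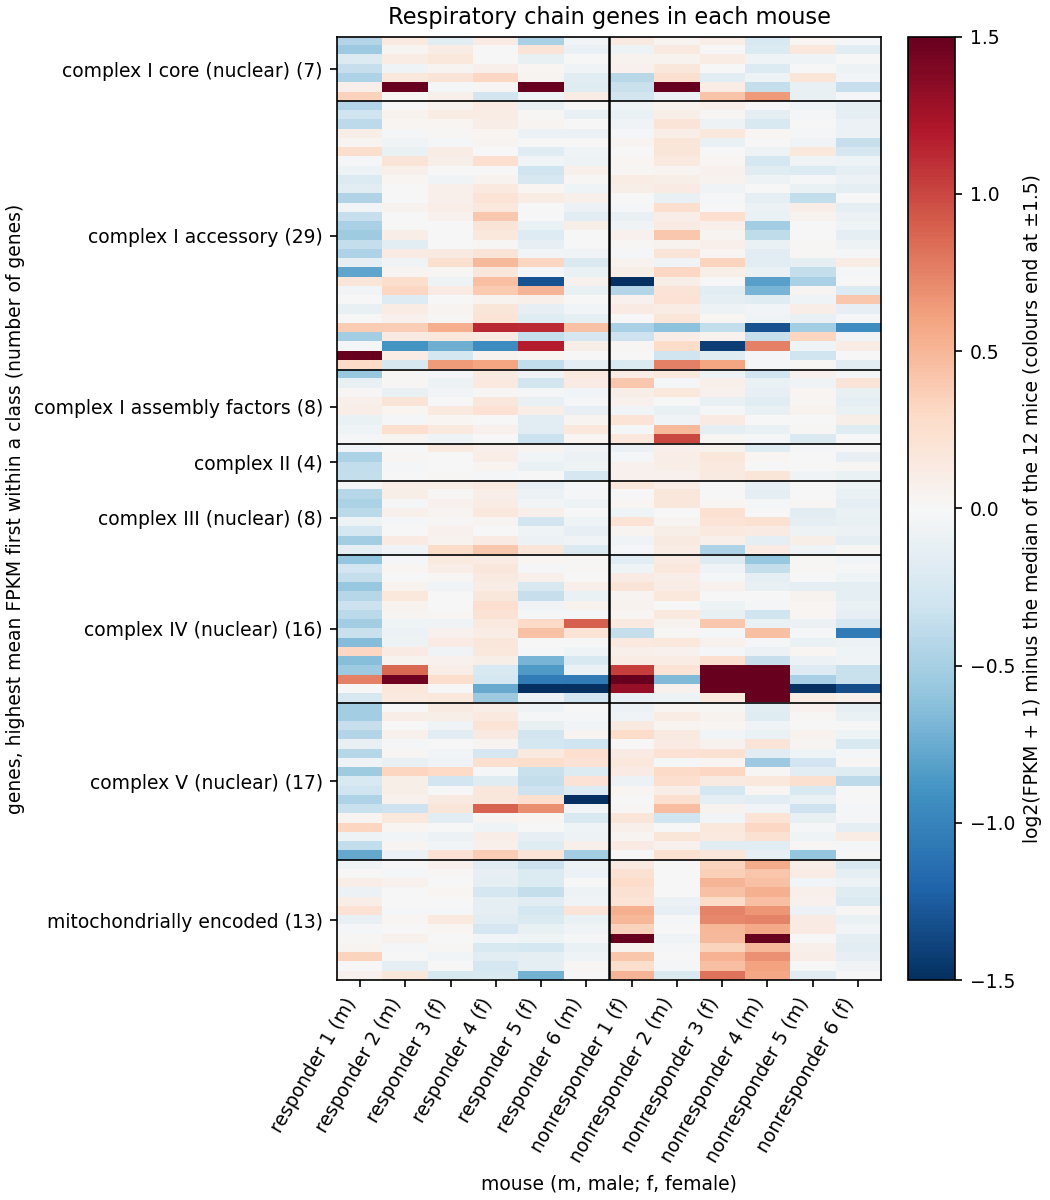
Level of each tested protein-coding member (rows, by class) in each of the 12 mice (columns), as log2(FPKM + 1) minus the median of the 12 mice. The mitochondrially encoded block is red in nonresponders 1, 3 and 4, many nuclear rows are blue in responder 1, and single rows such as Ndufv1 change sharply between mice.

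Ndufs5, an accessory subunit of complex I on the side of the intermembrane space, was the single member that differed between responders and nonresponders. Its FPKM in responders 1 to 6 were 34.7, 34.1, 38.9, 58.8, 58.5 and 36.1. In nonresponders 1 to 6 they were 18.5, 16.8, 20.2, 10.03, 18.0 and 13.3. Every responder lay above every nonresponder, and the 2 highest values were both from females. The log2 fold change of FPKM + 1, responder over nonresponder, was 1.37 (SE 0.168, limma, Benjamini-Hochberg adjusted p = 0.0225). It was 1.21 within males and 1.53 within females, and the difference of the 2 was 0.31 (limma interaction, adjusted p = 0.86). Ndufs5 was 1 of 3 genes called among the 14203 tested, which is 0.0211% of them and 0.943% of the 106 members tested. It was also the only member without overlap between the groups, as were 0.549% of all genes tested. The call did not hold in all fits: the adjusted p was 0.108 with no filter on low values, 0.0548 after rescaling each mouse to one common total, 0.0578 without the sex covariate and 0.0673 without responder 1. It was 0.0678 without responder 4, 0.0943 without nonresponder 1, 0.0675 without nonresponder 3 and 0.0539 without nonresponder 6, while the log2 fold change stayed between 1.21 and 1.53 in each setting tried.

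Ndufs5 (ENSMUSG00000028648, chr4:123712710-123718202, minus strand, GRCm38) has a near-identical intronless copy, BC002163 (ENSMUSG00000081824, chr16:42955631-42955949, plus strand), annotated as a processed pseudogene. The copy matched the Ndufs5 transcript over 319 bases at 99.4% identity, and the match began at the first base of the coding sequence, from which positions are counted. Only T81C and A105G, with the Ndufs5 base first, set them apart, so reads from the rest of the match cannot be assigned by sequence alone. Both lie within the coding sequence, which covers positions 1 to 318 of the match. The stretch from position 61 to position 125 is shown with both differing bases in capitals, because it holds the only letters that separate the genes over the match.
Ndufs5: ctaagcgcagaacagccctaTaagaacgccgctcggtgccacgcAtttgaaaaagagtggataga
BC002163: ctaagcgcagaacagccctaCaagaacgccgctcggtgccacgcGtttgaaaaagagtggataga
BC002163 stood at 15.9 ± 2.94 FPKM in responders and 14.9 ± 2.43 FPKM in nonresponders (SD, n = 6 each; exact permutation test, 2-sided, p = 0.522). Its range was 12.03 to 19.7 FPKM in responders and 11.6 to 18.3 FPKM in nonresponders, so the groups overlapped. The ratio of Ndufs5 to its copy was 2.77 ± 0.75 in responders and 1.08 ± 0.194 in nonresponders. The 2 genes summed to 59.4 ± 13.05 FPKM and 31.0 ± 5.69 FPKM, a log2 difference of 0.91 (exact permutation test, 2-sided, p = 0.00216, the smallest that 6 against 6 can give). Ndufs5 was chosen with its separation of the groups known and the copy differed little, so this p adds no separate support. With the sum weighted by transcript length the log2 difference was 1.09. Whether reads were divided between the genes in the same way in every mouse was not tested.

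**Figure D2:**
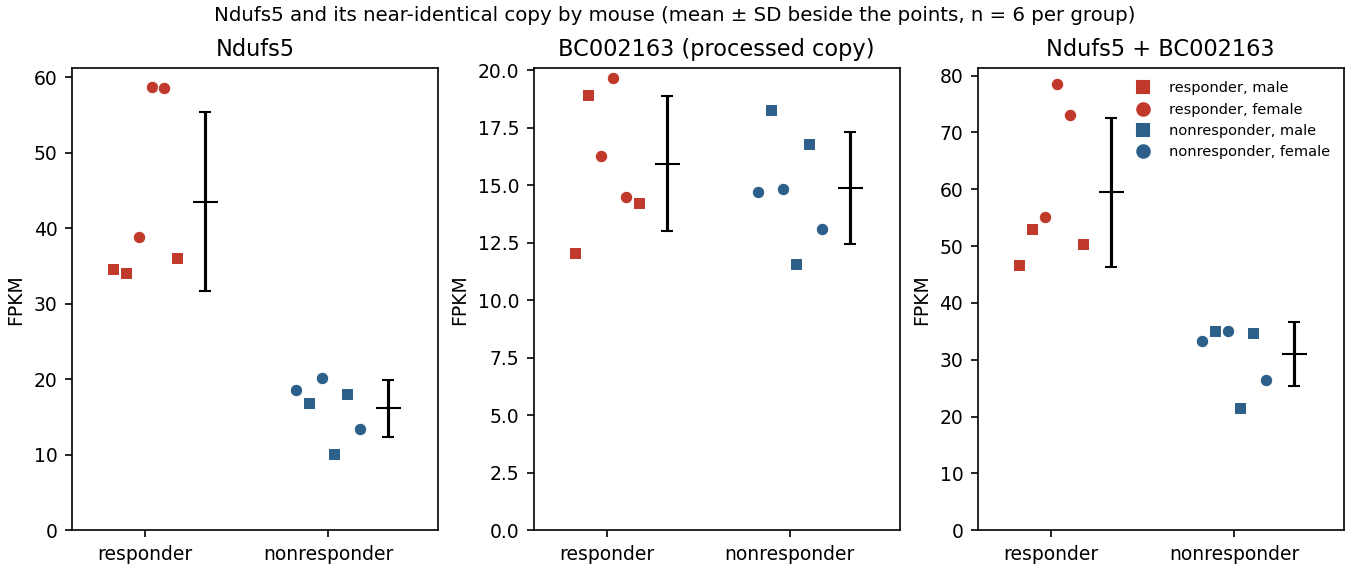
FPKM of Ndufs5, of its copy BC002163 and of their sum in each mouse (points; squares male, circles female), with the mean ± SD of 6 mice beside them. Ndufs5 and the sum separate the groups, whereas the copy overlaps, at 15.9 FPKM against 14.9 FPKM on average.

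Across the other members the response test called none. At an unadjusted p under 0.05 there were 8 of 106 members (7.55%), close to the share of all genes tested (7.4%), and 5 of the 8, all mitochondrially encoded, were lower in responders (4.72% of members, against 4.17% of all genes). Values were lower in responders for 71 of 106 members (67%) and for 49.3% of all genes tested. That split moved in both directions with the settings. Of the 106 members, 57 were lower when FPKM were scaled without mitochondrially encoded genes and pituitary hormones, 50 with array weights and 74 after rescaling to a common total. In single omissions the count ran from 52 without responder 1 and 57 without nonresponder 2 to 80 without nonresponder 6 and 81 without responder 4. It was 86 of 105 in males alone and 51 of 106 in females alone. Among nuclear protein-coding members 56 of 89 were lower with a median log2 fold change of -0.03, and 43 of 89 with a median of 0.01 after that scaling, which moved the median of all genes from 0.00 to 0.04.

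**Figure D3:**
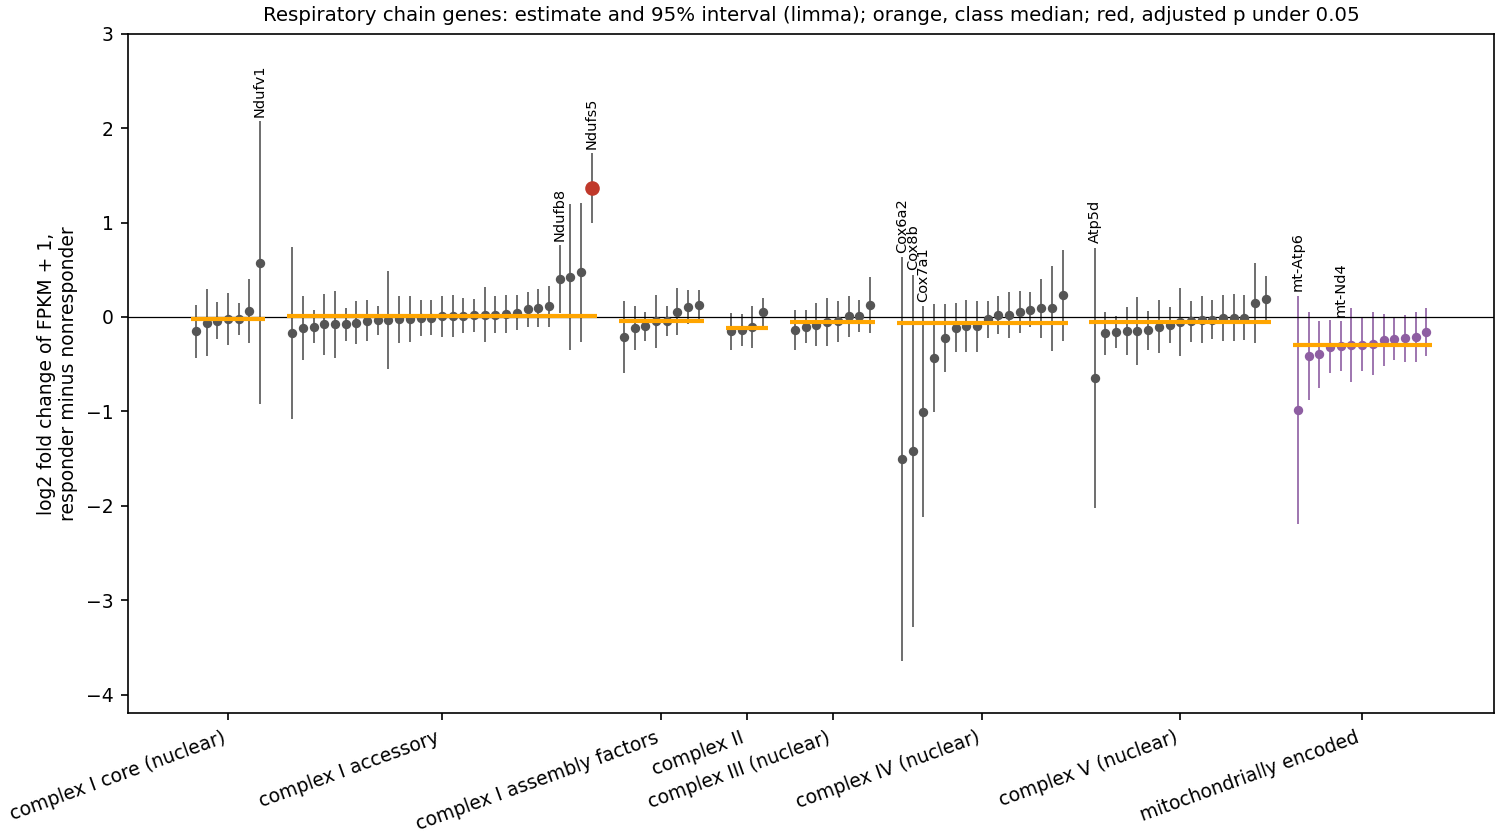
Log2 fold change of FPKM + 1, responder minus nonresponder, for each tested protein-coding member, by class, with its 95% interval from limma (n = 6 per group). Orange bars are class medians, such as -0.29 for the mitochondrially encoded genes, and the red point is Ndufs5, the member with an adjusted p under 0.05.

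In complex I, 5 of 7 nuclear core subunits had lower values in responders (median log2 fold change -0.02), as had 14 of 29 accessory subunits (median 0.01) and 5 of 8 assembly factors (median -0.05). Ndufb8, an accessory subunit of the membrane arm, lay between 45.3 and 70.7 FPKM (median 57.2) in responders and between 30.0 and 56.5 FPKM (median 43.3) in nonresponders. Its groups overlapped, and its log2 fold change of 0.40 did not pass (SE 0.164, limma adjusted p = 0.64). Ndufaf3, which takes part in the first assembly steps, was at 14.5 ± 1.19 and 13.1 ± 0.642 FPKM (SD, n = 6 each; limma adjusted p = 0.718). Ndufv2, a core subunit with an iron-sulfur cluster, was at 80.4 ± 14.9 and 88.3 ± 7.65 FPKM (limma adjusted p = 0.795).

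Complex II, which oxidises succinate in the citric acid cycle, had 3 of 4 subunits with lower values in responders and a median log2 fold change of -0.12. Its membrane anchors were Sdhd at 82.1 ± 7.92 FPKM in responders and 90.02 ± 3.77 FPKM in nonresponders (log2 fold change -0.14, limma adjusted p = 0.727) and Sdhc at 24.6 ± 2.75 and 27.4 ± 2.13 FPKM. The flavoprotein Sdha was at 124 ± 6.25 and 119 ± 7.81 FPKM. The lowest Sdhd and Sdhc values, 67.0 and 20.4 FPKM, were both from responder 1. In complex III 5 of 8 nuclear subunits were lower (median -0.05). Uqcrfs1, the Rieske iron-sulfur protein, was at 82.8 ± 6.57 and 89.0 ± 6.05 FPKM (limma adjusted p = 0.772), and Uqcrb, a ubiquinone-binding subunit, at 84.9 ± 6.54 and 93.8 ± 10.6 FPKM (limma adjusted p = 0.766).

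In complex IV 9 of 16 tested genes, counting the associated factor Cox7a2l, were lower (median -0.06), led by the muscle isoforms described below. The widely expressed subunits lay close together: Cox6a1 was at 492 ± 79.8 FPKM in responders and 461 ± 71.7 FPKM in nonresponders, and Cox4i1, the main isoform of the regulatory subunit 4, at 129 ± 23.2 and 114 ± 35.9 FPKM. Ndufa4, counted here with complex IV, was at 227 ± 37.9 and 241 ± 24.3 FPKM. In complex V 15 of 17 tested genes, counting the associated factor Atp5s, had lower values in responders, but the median was -0.05. Atp5l, the g subunit of the membrane part, had the smallest p of the class (limma adjusted p = 0.678): 46.5 to 54.4 FPKM (median 48.1) in responders and 48.4 to 59.9 FPKM (median 55.6) in nonresponders. Atp5b was at 678 ± 101 and 678 ± 45.5 FPKM. The genes for the identical mature c subunit of the rotor ring, Atp5g1, Atp5g2 and Atp5g3, had log2 fold changes of 0.19, -0.03 and -0.01.

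All 13 mitochondrially encoded genes were listed lower in responders. Their median log2 fold change was -0.29, and limma called none of them. Their summed share of all FPKM in responders 1 to 6 was 4.93, 5.69, 5.82, 5.23, 4.97 and 5.79%. In nonresponders 1 to 6 it was 7.68, 5.81, 7.69, 8.32, 5.86 and 5.51%. Nonresponders 1, 3 and 4 stood above the other 9 mice, and the other 3 nonresponders lay within or just above the range of the responders. Group means were 5.40 ± 0.412% and 6.81 ± 1.22% (SD, n = 6 each), or 5.67 ± 0.474% and 6.82 ± 1.22% of the total without pituitary hormones. Without mt-Atp6, described below, the share was 6.77, 7.50 and 7.40% in nonresponders 1, 3 and 4 and at most 5.72% in any other mouse. The nuclear members summed to 8707 ± 882 FPKM in responders and 8773 ± 519 FPKM in nonresponders, so the rise of nonresponders 1, 3 and 4 was not seen in the nuclear sum, which was 8879, 9082 and 8239 FPKM in them. In RNA of whole ganglia, fewer cells of a type and less RNA per cell cannot be told apart.

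For mt-Nd4, a proton-pumping subunit of complex I with the smallest p of these genes, responders ranged from 792 to 964 FPKM (median 918) and nonresponders from 913 to 1395 FPKM (median 1110). The groups overlapped, and the log2 fold change was -0.31 (SE 0.121, limma adjusted p = 0.632). Of the complex I genes beside it, mt-Nd1 had -0.31, mt-Nd2 -0.40, mt-Nd4l -0.29, mt-Nd5 -0.23, mt-Nd3 -0.41 and mt-Nd6 -0.28. For mt-Cytb, the mitochondrially encoded subunit of complex III, the log2 fold change was -0.23. In complex IV the values were -0.24 for mt-Co1, -0.16 for mt-Co2 and -0.21 for mt-Co3, and in complex V -0.30 for mt-Atp8 and -0.99 for mt-Atp6. The 3 highest mice included nonresponder 1 for 12 of the 13 genes and nonresponders 3 and 4 for all 13. Responder 5 was the lowest mouse for 8 of the 13.

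Nonresponders 1, 3 and 4 were also the 3 mice with the highest skeletal muscle markers. The mean log2(FPKM + 1) of 13 such genes was 4.18, 5.59 and 5.80 in them, 3.89 in responder 2 and at most 2.97 in the other 8 mice. All 13 markers were above 0 in the table, and they summed to 28.9 to 557 FPKM in responders and 57.3 to 2427 FPKM in nonresponders. These 3 mice also held the highest mitochondrially encoded shares, and their omission was chosen after the values were seen. Leaving them out therefore had to shrink the difference between the groups. Without them the median log2 fold change of the mitochondrially encoded genes was -0.02, and 7 of 13 were lower. With the muscle markers as a covariate, also chosen after the values were seen, it was -0.12, and all 13 were lower. In single omissions the median ran from -0.36 to -0.21. Marker lists of other cells were also listed at unequal values in the groups. Values were lower in responders for 10 of 10 pericyte and smooth muscle genes tested, 9 of 10 of myelinating Schwann cells, 7 of 8 of fibroblasts and meninges, 6 of 8 of satellite glia and 5 of 5 of central glia. The same held for 8 of 8 neutrophil, 5 of 5 red cell and 4 of 5 adipocyte genes, while 9 of 9 pituitary and 12 of 15 sensory neuron genes had higher values in responders. The pericyte and smooth muscle markers, too, were highest in nonresponders 3 and 4, with a mean log2(FPKM + 1) of 2.57 and 2.62, followed by responder 1 at 2.34 and nonresponder 1 at 2.30. None of these markers was called, and their part in the mitochondrial values was not tested.

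**Figure D4:**
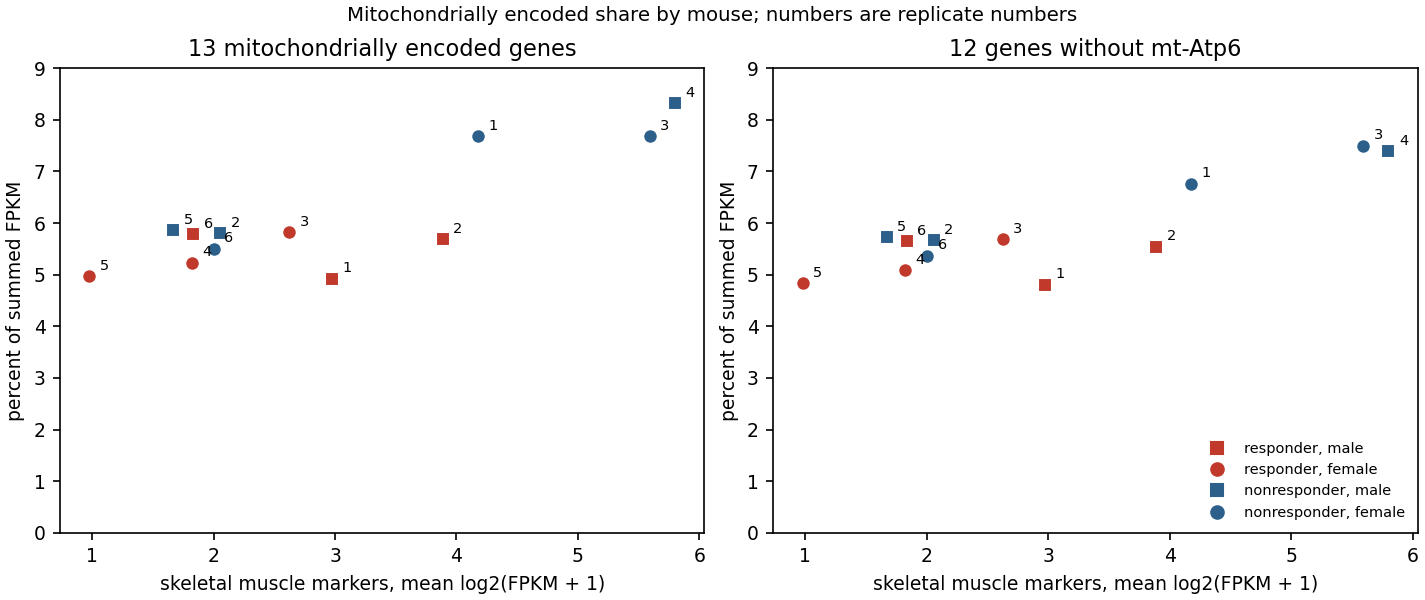
Share of summed FPKM taken by the mitochondrially encoded genes (vertical axis, percent) against the mean log2(FPKM + 1) of the skeletal muscle markers (horizontal axis) in each mouse, for all 13 genes and for 12 genes without mt-Atp6. Nonresponders 1, 3 and 4 lie at the upper right, with 7.68, 7.69 and 8.32% for all 13 genes.

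The mitochondrial gene mt-Atp6 (chrM:7927-8607), a subunit of the proton channel of ATP synthase, differed from its neighbours. It stood at 2758 FPKM in nonresponder 1 and 3075 FPKM in nonresponder 4, and between 381 and 587 FPKM in the other 10 mice. It overlaps mt-Atp8 (chrM:7766-7969) by 43 bases, and mt-Atp8 was at 2208 and 2414 FPKM in those 2 mice and at 2553 FPKM in nonresponder 3. A nuclear copy of mitochondrial sequence, Gm10925 (chr1:24613974-24614651), matched mt-Atp6 at 100% over 678 bases and was listed at a mean of 2358 FPKM. The ratio of mt-Atp6 to Gm10925 was 0.94 in both nonresponders 1 and 4 and between 0.18 and 0.215 in the other mice. In sum the pair reached 2258 to 2717 FPKM in responders and 2425 to 6348 FPKM in nonresponders, with 5691, 3856 and 6348 FPKM in nonresponders 1, 3 and 4. How reads were divided between identical sequences was not tested.

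Copies on chromosome 1 shadowed 7 of the 13 genes at 10% or more of their level. The ratio of gene to copy was 0.998 to 1.01 for mt-Co3 and Gm28437 and 0.993 to 0.996 for mt-Co2 and Gm28661 over the 12 mice. It was 2.09 to 2.51 for mt-Co1 and Gm29216 and 1.497 to 1.72 for mt-Nd4 and Gm28439. The copies were lower in responders in 7 of 7, with a median log2 fold change of -0.28. The mitochondrial light strand gene mt-Nd6 overlaps mt-Nd5 by 14 bases, and without strand-specific counting, on which the sources used here say nothing, reads of the opposite strand cannot be told apart from it. Among nuclear protein-coding members 31 of 94 had a near-identical copy and 7 had one listed at 10% or more of their own level. They included Cox7a2l (Gm6969 at 109 FPKM beside 106 FPKM), Atp5l (Gm10221 at 31.8 beside 52.0 FPKM) and Ndufa12 (Gm15920 at 26.2 beside 53.3 FPKM).

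The striated muscle isoforms of complex IV varied widely between mice. Cox6a2 was at 5.21, 9.11, 3.41, 2.07, 0.785 and 0.768 FPKM in responders 1 to 6 and at 17.4, 1.32, 54.0, 76.5, 1.63 and 1.91 FPKM in nonresponders 1 to 6. Nonresponders 1, 3 and 4 were the highest mice, and the other nonresponders lay within the responders' range. Means were 3.56 ± 3.20 and 25.5 ± 32.2 FPKM (SD, n = 6 each), a log2 fold change of -1.503 that did not pass (SE 0.974, limma adjusted p = 0.749). Cox8b was at 3.57 ± 2.43 and 19.1 ± 21.3 FPKM (limma adjusted p = 0.735), and Cox7a1 at 9.47 ± 4.71 and 24.7 ± 20.3 FPKM (limma adjusted p = 0.688). Leaving out nonresponders 1, 3 and 4, the highest mice for Cox6a2, had to raise its log2 fold change. Without these mice, an omission chosen after the values were seen, the log2 fold changes were 0.59 for Cox6a2, 0.32 for Cox8b and 0.04 for Cox7a1. Of their widely expressed paralogs, Cox8a, whose promoter is printed above beside that of Cox8b, lay between 322 and 444 FPKM in responders and between 307 and 439 FPKM in nonresponders.

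Each isoform was compared over the 12 mice with the mean of the skeletal muscle markers, none of which is a member, and 5 such relations were computed in all. For Cox6a2 Pearson's r was 0.986 (permutation p = 1e-05, the smallest the resamples can give, adjusted 5e-05) and Spearman's rho 0.888 (permutation p = 0.00034, adjusted 0.00085). Without nonresponders 3 and 4, the mice farthest from the median of the markers, r was 0.96, and it was 0.952 within responders (exact permutation p = 0.00556) and 0.995 within nonresponders (exact permutation p = 0.00556). For Cox8b r was 0.962 and rho 0.951 (permutation p = 3e-05 for both, adjusted 7.5e-05 and 0.00015), with 0.887 without the same 2 mice. Within groups it was 0.902 for responders (exact permutation p = 0.0167) and 0.97 for nonresponders (exact permutation p = 0.00139). For Cox7a1 r was 0.946 and rho 0.797 (permutation p = 8e-05 and 0.0028, adjusted 0.00013 and 0.0046), with 0.83 without those mice. Within groups it was 0.78 for responders (exact permutation p = 0.0681) and 0.986 for nonresponders (exact permutation p = 0.00694). The isoforms known from pericytes and hypoxic tissue did not pass against pericyte markers: r was 0.362 for Cox4i2 (rho 0.427, permutation p = 0.25 and 0.17, adjusted 0.31 and 0.21) and 0.284 for Ndufa4l2 (rho 0.285, permutation p = 0.38 and 0.37, adjusted 0.38 and 0.37). Without nonresponder 4 and responder 1, the mice farthest from the median of these markers, r was 0.576 and 0.0501. Within groups Cox4i2 had 0.314 for responders (exact permutation p = 0.492) and 0.533 for nonresponders (exact permutation p = 0.265). For Ndufa4l2 the groups gave opposite signs, 0.929 for responders (exact permutation p = 0.0333, not adjusted) and -0.318 for nonresponders (exact permutation p = 0.667), and the difference of the 2 was not tested. Cox4i2 stayed under 1 FPKM, and Ndufa4l2 was listed at 0 in 9 of 12 mice, all but responders 1 and 3 and nonresponder 1.

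**Figure D5:**
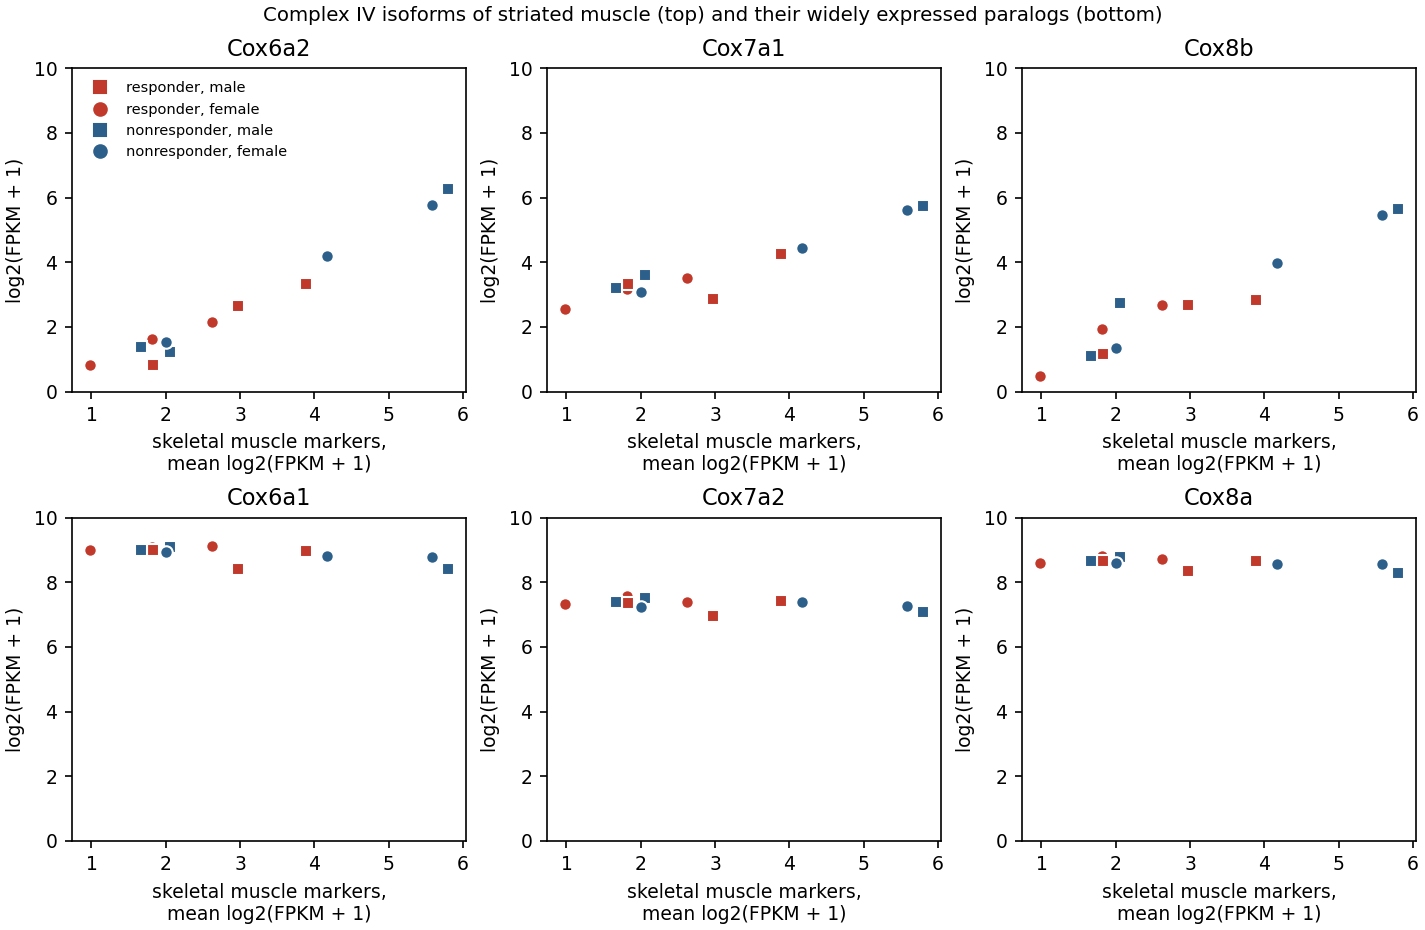
Log2(FPKM + 1) of 3 striated muscle isoforms (top) and of their widely expressed paralogs (bottom) against the mean log2(FPKM + 1) of the skeletal muscle markers; each point is a mouse. The muscle isoforms climb with the markers, with r of 0.986 for Cox6a2, while Cox8a lies between 307 and 444 FPKM in all mice.

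Some nuclear members changed in steps between single mice instead of between groups. Of 98 members with a mean of at least 5 FPKM, 6 (6.12%) had a gap of more than 2-fold between neighbouring mice in the order of their values, against 7.82% of 7630 protein-coding genes of that level. Besides mt-Atp6 and the 3 muscle isoforms these were Ndufv1 and Atp5d. Ndufv1, the flavin-binding subunit that accepts electrons from NADH, stood at 62.9 FPKM in responder 2, 61.7 FPKM in responder 5 and 65.7 FPKM in nonresponder 2, and between 7.24 and 10.3 FPKM in the other 9 mice. Atp5d, the delta subunit of the central stalk of ATP synthase, stood at 5.28 FPKM in responder 6 and between 82.5 and 136 FPKM in the other 11. Both kinds of step crossed the groups or rested on 1 mouse, and neither gene was called (limma adjusted p = 0.857 and 0.817). Ndufv3, an accessory subunit of the NADH-oxidising module with a lower mean, stood at 16.5 FPKM in responder 1 and between 2.26 and 3.35 FPKM elsewhere.

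Responder 1 held the lowest value of the 12 mice for 41 of 89 nuclear protein-coding members tested, and for 19.5% of all genes tested. Nonresponder 4 held it for 11 of the 89 and for 16.4% of all genes. After scaling without mitochondrially encoded genes and pituitary hormones responder 1 held the lowest value for 28 of the 89, and nonresponder 4 for 30. The share of all genes was not computed after that scaling, so these counts cannot be read as particular to the members. The nuclear sum in responder 1 was 7079 FPKM as deposited, against 8201 to 9672 FPKM in the other mice. After that scaling it was 7524 in responder 1 and 7563 in nonresponder 4, against 8429 to 9737 in the other 10 mice, so these 2 mice then lay together below the rest.

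No member was called within males (0 of 106, against 0.0141% of all genes tested) or within females (0 of 106, against 0.00704%). At an unadjusted p under 0.05, Ndufs5 was the only member within males (0.943%, against 6.78% of all genes), and 9 members were found within females (8.49%, against 6.81%). In females these included, named after their values were seen, Ndufs5, Ndufb8 at a log2 fold change of 0.61 and Cox4i1 at 0.68, with higher values in responders, and mt-Nd3 at -0.83 and mt-Atp8 at -0.57, with lower values. For no member did the difference in response between the sexes pass (limma interaction, 0 of 106 called, smallest adjusted p = 0.836, against 0% of all genes). At an unadjusted p under 0.05 the interaction held 5 members (4.72%, against 5.01% of all genes). These were Uqcrc1, Ndufs1, Atp5a1, Cox4i1 and mt-Nd3. Uqcrc1, for example, had a log2 fold change of -0.19 within males and 0.44 within females.

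Between females and males no member was called (0 of 106, against 0.0563% of all genes tested), and 5 (4.72%, against 4.53%) had an unadjusted p under 0.05. Ndufb5, an accessory subunit of the membrane arm of complex I, had the smallest p. It ranged from 57.9 to 78.7 FPKM in the 6 females and from 48.0 to 54.1 FPKM in the 6 males, without overlap. The share of all genes without overlap between the sexes was not computed. No leading number of the description codes was shared by females and males, so anything it marks cannot be told apart from sex. The log2 fold change of Ndufb5 was 0.38 and did not pass (limma adjusted p = 0.507). The others were Ndufs5, Ndufa10 and Atp5k, with higher values in females, and Atp5j2, with lower values.

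Of the 115 members, 106 passed the filter (1 FPKM or more in 3 or more mice). The 9 others were Cox8c and Cox7b2, which are testis isoforms, Cox4i2, Ndufa4l2, the further Atp5o identifier, Ndufa11b, Ndufs6b, Ndufab1-ps and Atp5c1-ps. Cox8c and that Atp5o identifier were listed at 0 in all mice, and the highest of the 9 means was 0.607 FPKM, for Ndufab1-ps. The testis isoform Cox6b2 passed, between 1.51 and 3.08 FPKM in responders and between 2.43 and 9.88 FPKM in nonresponders, while the testis markers examined summed to at most 0.345 FPKM in any mouse. Of the noncoding models, Cox6c2 was at 1.74 ± 0.823 FPKM in responders and 0.842 ± 0.362 FPKM in nonresponders (limma adjusted p = 0.64), and Ndufb4c and Ndufb1-ps had means of 29.9 and 36.0 FPKM.

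Genes that serve the same pathway outside the symbol rule were not called in either direction. None of 13 electron carrier and coenzyme Q synthesis genes tested passed, with 9 lower in responders and a median log2 fold change of -0.09. None of 35 further assembly factors passed (19 lower, median -0.02), none of 17 genes of the citric acid cycle and pyruvate dehydrogenase (13 lower, median -0.06) and none of 24 genes of mitochondrial DNA maintenance and transcription (14 lower, median -0.03). The same held for 8 regulators of mitochondrial biogenesis (5 lower, median -0.03), 20 genes of the outer membrane, import and cristae (9 lower, median 0.00) and 3 carriers of adenine nucleotides and phosphate (2 lower, median -0.09). At an unadjusted p under 0.05 these lists held 0 of the electron carriers, citric acid cycle genes, regulators of biogenesis and nucleotide carriers, 1 assembly factor (Lyrm7) and 1 import gene (Hspd1), both lower in responders, and 3 genes of mitochondrial DNA, of which Supv3l1 and Tfb1m were lower and Mterf4 higher; these 5 genes were named after their values were seen. Over all 14203 genes tested, 7.4% had an unadjusted p under 0.05, and the median log2 fold change was 0.00.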

How the data were processed

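Poly A selected RNA of whole trigeminal ganglia from 12 mice was sequenced in pairs of reads. The authors deposited 1 table with a value per Ensembl gene and mouse, read here as FPKM from its values, since the header names no unit. The tools STAR 2.6.0a and StringTie 1.3.5 and the builds GRCm38 and mm10 are named, per the submitters' processing notes. For the annotation, the settings and the read counts nothing is given in the sources used here, so the depth per mouse is unknown. Multimapped reads and read splitting between near-identical genes can affect the values of members with copies, and how far they did so here was not tested.

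Symbols came from GENCODE M21 and matched 51076 of 51341 identifiers. The test planned for counts was not used because the table holds FPKM. A gene entered when 3 or more mice had 1 FPKM or more. Values of log2(FPKM + 1) were fitted in limma 3.58.1 (R 4.3.3), with sex as covariate, 9 residual and 2.23 prior degrees of freedom, and Benjamini-Hochberg adjustment over all 14203 genes at 0.05. This scale understates changes of low genes. Response within each sex and the interaction came from 4 cell means. The script was tested on simulated data. Copies were transcripts matching a member at 90% identity or more over at least 200 bases and 80% of the copy. Correlations used 100000 resamples, and exact permutation tests were 2-sided. Some mice of a group shared the leading number of the description code, and the tests treated each mouse as independent. No label says whether mice shared a litter, so p-values measure the spread between these mice.

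The members and gene lists were chosen with earlier results of these data known. Named genes were every called member, the 4 smallest p and the highest and lowest mean per nuclear class, all mitochondrially encoded genes, listed isoforms and untested members. Atp5a1, Atp5d, Atp5j, Atp5k, Cox6c2, Ndufa10, Ndufa12, Ndufa3, Ndufb1-ps, Ndufb4c and Ndufb5 were chosen after their values were seen. Alternatives were other pseudocounts, filters, scalings and fits and omitted mice.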

Additional observations from a re-analysis of the deposited data

Results flagged for a closer look

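Listed here are single mice that stood apart from the other 5 of their group. The gap had to be large against the range of the group (Dixon's ratio above its critical value). Chance flags about 1 in 20 groups, and 29 of 212 groups of the tested members (13.7%) were flagged. The share over all genes tested was not computed, so this count cannot be read as particular to the members. Flags among the named genes were often in responder 1, in which pituitary hormones took 21.7% of all FPKM. Whether the hormone share bears on these flags was not tested. Low values in that mouse were 220.2 FPKM for Atp5g3, 335.1 FPKM for Cox6a1, 193.1 FPKM for Cox6b1, 61.44 FPKM for Ndufa10 and 18.08 FPKM for Ndufaf5. The same held for Ndufs8 (54.57 FPKM), Sdhb (74.33 FPKM), Sdhd (66.98 FPKM) and Uqcr10 (98.03 FPKM). High values in responder 1 were 88.04 FPKM for Atp5g2, 16.51 FPKM for Ndufv3 and 836.5 FPKM for mt-Nd6. Responder 5 was high for Ndufa3 (24.79 FPKM) and low for Ndufaf4 (2.315 FPKM), and responder 4 was high for Atp5l (54.41 FPKM). Among nonresponders, mouse 2 was high for Ndufaf4 (7.247 FPKM) and Ndufv1 (65.69 FPKM), mouse 3 low for Uqcrc1 (5.764 FPKM), mouse 4 high for the testis isoform Cox6b2 (9.875 FPKM) and mouse 6 high for Cox6c2 (1.571 FPKM).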

How the results depend on the processing

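The count of called members was 1 (Ndufs5) as analysed and 0 under no filter on low values, rescaling to a common total, no sex covariate, the replicate block, omission of responder 1 with nonresponder 4, males only, females only, and 2 alternatives chosen after seeing the data, omission of nonresponders 1, 3 and 4 and the muscle marker covariate. The Ndufs5 adjusted p (limma) was 0.108, 0.0548, 0.0578, 0.276, 0.144, 0.495, 0.187, 0.347 and 0.108 in that order; fits with fewer mice have less to estimate the spread from, and otherwise the cause was not tested. Leaving out each mouse in turn gave counts from 0 to 1. The replicate block left 1 gene called in all. Deviations from the group means were weakly correlated between mice with the same replicate number (correlations from -0.27 to 0.13). The labels do not say whether these numbers pair the mice, and the correlations cannot decide it. The median log2 fold change of the mitochondrially encoded genes was -0.29, and -0.0199 without nonresponders 1, 3 and 4; the cause was not tested. Without mt-Atp6 these medians were -0.29 and -0.03. Of all comparisons of a value with an alternative, 2024 kept their side of the threshold and changed sign, if at all, by less than the spread between mice. A further 30 were lower: 14 for Ndufs5, 14 for the count of called members and 2 for the count of all genes called, which rose by more than 1.5 times in 5. The other 18 were uncalled fold changes that changed sign and medians that moved, by more than that spread, in males alone or without nonresponders 1, 3 and 4. Read counts are unknown, so low members such as Ndufc1 and Cox6c2 carry unknown counting error.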

Other observations

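The ribosomal RNAs of the mitochondrial genome, transcribed from the same strand as most of its protein-coding genes, showed the same mice at the extremes. The 16S RNA mt-Rnr2 ranged from 275 to 589 FPKM (median 536) in responders and from 550 to 1118 FPKM (median 662) in nonresponders, and the 12S RNA mt-Rnr1 from 198 to 648 FPKM (median 583) and from 538 to 1102 FPKM (median 638). Both were lowest in responder 5 and highest in nonresponder 4. These RNAs are poorly captured by poly A selection. Among genes that serve the respiratory chain, Lyrm7, an assembly factor of complex III, was at 1.72 ± 1.04 FPKM in responders and 4.31 ± 1.88 FPKM in nonresponders (SD, n = 6 each; log2 fold change -0.94, limma adjusted p = 0.529). Hspd1, the mitochondrial chaperonin, was at 10.6 ± 7.05 and 18.9 ± 1.61 FPKM (log2 fold change -0.94, limma adjusted p = 0.504). Neither passed the test over all genes.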
